A study of Homo sapiens with 12 samples.

Results

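OFD1, PPIC and PCMTD1 were 3 of the 52859 genes counted in MDA-MB-231 cells, and they were chosen because their counts were low in cells given the mtAsn-2 LNA. Their levels with mtAsn-2 are therefore a description, with no test. An LNA (locked nucleic acid) is a short oligonucleotide with modified sugars that binds a matching RNA tightly, and MDA-MB-231 is an established line of triple-negative breast cancer cells. RNA was sequenced from 12 libraries in 4 groups of 3: cells given the mtAsn-2 LNA, the mtAsn-1 LNA, the mtLys LNA or a control LNA. Both asparagine LNAs are named for the mitochondrial asparagine tRNA and mtLys for the mitochondrial lysine tRNA. All 4 groups were the same cell line, received 20 nM of LNA by lipid transfection, and were collected on day 2, so the control cells had been transfected too and no untransfected group was among those analysed. The labels number the libraries 1 to 3 in each group and do not name separate cultures, so a p-value here measures only how far such libraries lie apart, a spread that may be technical.

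The 3 genes have unrelated roles. OFD1 encodes a protein of centrioles and of the centriolar satellites around them. It is needed to build distal appendages and primary cilia, and its loss in people causes oral-facial-digital syndrome. PPIC encodes cyclophilin C, a prolyl isomerase of the secretory pathway that helps newly made proteins fold. PCMTD1 encodes a protein with a domain like that of the isoaspartate methyltransferase PCMT1, an enzyme that repairs aged aspartate and asparagine residues in proteins, and with a SOCS box, the part through which receptors of CUL5 ubiquitin ligases join the ligase core.

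In hg38 coordinates of the deposited table, OFD1 lies on the plus strand of chromosome X from 13734713 to 13773978, with 26 merged exons of 9325 bases in all. PPIC lies on the minus strand of chromosome 5 from 123023250 to 123036725, with 5 exons of 1364 bases. PCMTD1 lies on the minus strand of chromosome 8 from 51817575 to 51899186, with 8 merged exons of 4827 bases.

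The mitochondrial asparagine tRNA is shown because both asparagine LNAs carry its name. It is encoded by MT-TN at 5657 to 5729 on the minus strand of the mitochondrial genome, and its sequence is taken from GENCODE 29. Capitals mark the longest exact runs that it shares, on the same strand, with GENCODE transcripts of OFD1 or PPIC.

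MT-TN: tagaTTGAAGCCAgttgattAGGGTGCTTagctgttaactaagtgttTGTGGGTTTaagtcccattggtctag

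The run at bases 48 to 56 of the tRNA also stands in the 3′ UTR of OFD1, at chrX:13769225-13769233 on the plus strand. The run at bases 21 to 29 stands in the 3′ UTR of PPIC, in exon 5 at chr5:123023416-123023424 on the minus strand. The run at bases 5 to 13 stands in a retained-intron transcript of PPIC, at chr5:123029254-123029262 on the minus strand. Each of these runs is 9 bases long, and the longest run that PCMTD1 transcripts share with MT-TN is also 9 bases. A run of at least 9 bases was present in 56.2% of the 14252 tested genes that had a GENCODE transcript, so a shared run of this length is common. The longest run with the lysine tRNA MT-TK was 9 bases for OFD1, 10 for PPIC and 11 for PCMTD1, lengths reached by 56.7%, 24.7% and 8.01% of genes. The sources used here do not give the LNA sequences, and introns were not searched.

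The promoters of OFD1 and PPIC are shown because the levels of both genes were low in the same 3 libraries. Each is the RefSeq window on GRCh38.p14 from 250 bases before to 50 after the RefSeq start site, chrX:13734498-13734797 on the plus strand for OFD1 and chr5:123036676-123036975 on the minus strand for PPIC. The OFD1 span of the deposited table begins at 13734713, upstream of the RefSeq start site, and distances to neighbours below are from that span. Capitals mark the motif matches, found on either strand.

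OFD1 promoter: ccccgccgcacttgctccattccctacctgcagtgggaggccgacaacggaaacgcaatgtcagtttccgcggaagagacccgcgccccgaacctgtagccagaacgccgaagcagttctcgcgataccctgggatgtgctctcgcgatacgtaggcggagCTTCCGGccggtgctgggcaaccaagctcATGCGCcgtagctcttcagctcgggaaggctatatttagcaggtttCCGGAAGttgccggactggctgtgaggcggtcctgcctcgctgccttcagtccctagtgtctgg

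PPIC promoter: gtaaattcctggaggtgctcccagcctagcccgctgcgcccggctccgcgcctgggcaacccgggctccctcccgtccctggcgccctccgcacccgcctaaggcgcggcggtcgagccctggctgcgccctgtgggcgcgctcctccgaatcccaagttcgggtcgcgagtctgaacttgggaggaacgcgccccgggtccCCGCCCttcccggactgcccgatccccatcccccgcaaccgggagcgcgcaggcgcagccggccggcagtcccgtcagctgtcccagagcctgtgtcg

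The OFD1 window held the ETS core CCGGAAG at 89 and at 14 bases before the start site, a motif present in 10.3% of 35116 promoters of the same length. It also held the NRF1 core ATGCGC 60 bases before the start, present in 7.86% of promoters. The PPIC window held the GC box GGGCGG 48 bases before the start, present in 45.0% of promoters. The 2 windows had no motif in common, and neither held CCAAT (34.6% of promoters), the E-box CACGTG (7.26%), the cAMP response element TGACGTCA (1.85%), TATAAA (11.5%) or the antioxidant response element core TGACTCAGC (0.561%). GC content was 62.0% for OFD1 and 74.0% for PPIC, against a median of 58.7% over all promoters. These matches describe the letters only.

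Total counts per library lay between 17978825 and 37708993, and 16051 genes passed the filter on low counts, all 3 genes among them. MT-TN itself gave 1, 1 and 3 reads with mtAsn-2, 5, 2 and 2 with mtAsn-1, 4, 5 and 1 with mtLys, and 3, 6 and 2 with control, too few to check the asparagine LNA labels by their named tRNA. MT-TK gave 280, 283 and 198 reads with mtLys and 182, 181 and 111 with control. Its count was thus not lower than in control with the LNA named for it, as a count or as a share of the library. With mtAsn-2 it gave 313, 325 and 217 reads and with mtAsn-1 126, 135 and 269. Whether these reads came from the mature tRNA was not tested. VIM and CD44, present in this mesenchymal-like line, lay at 2954 to 3879 and 562 to 794 CPM (a gene's counts scaled to a common library total) in the 12 libraries. CDH1, ESR1 and PGR were at most 0.523, 0.286 and 0.0312 CPM, EPCAM lay at 3.45 to 6.21 CPM, and ERBB2 lay at 89.4 to 120 CPM and so was not absent.

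OFD1 RNA was less abundant in all 3 mtAsn-2 libraries than in any of the other 9. Its normalised levels were 4.71, 4.78 and 4.84 CPM with mtAsn-2, 18.6, 18.7 and 19.3 CPM with mtAsn-1, 16.6, 16.3 and 18.4 CPM with mtLys, and 16.2, 16.1 and 17.1 CPM with control. The mtAsn-2 libraries stood apart from all others, and the highest of them was far below the lowest control library. The means were 4.78 ± 0.0663, 18.9 ± 0.386, 17.1 ± 1.11 and 16.5 ± 0.505 CPM (SD, n = 3 each) with mtAsn-2, mtAsn-1, mtLys and control, so the mtAsn-2 mean was 29.0% of the control mean. These levels rest on 171, 153 and 159 reads with mtAsn-2 and on 434, 497 and 319 reads with control. In bulk RNA, fewer cells that express a gene and less RNA per cell cannot be told apart.

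PPIC, the cyclophilin, stood at 8.48, 6.31 and 7.91 CPM with mtAsn-2, 30.4, 28.8 and 27.9 CPM with mtAsn-1, 29.8, 29.1 and 28.8 CPM with mtLys, and 30.0, 27.0 and 25.3 CPM with control. Again only the mtAsn-2 libraries were low, and the ranges of the other groups overlapped. The means were 7.57 ± 1.12, 29.0 ± 1.31, 29.3 ± 0.508 and 27.5 ± 2.35 CPM (SD, n = 3 each) with mtAsn-2, mtAsn-1, mtLys and control, and the mtAsn-2 mean was 27.6% of the control mean. The reads behind them numbered 308, 202 and 260 with mtAsn-2, against 803, 832 and 474 with control.

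PCMTD1 was at 5.07, 4.09 and 3.99 CPM with mtAsn-2, 14.5, 14.0 and 13.8 CPM with mtAsn-1, 14.5, 14.0 and 14.6 CPM with mtLys, and 19.6, 15.4 and 17.3 CPM with control. Its control libraries were the highest, the mtAsn-1 and mtLys libraries lay together in the middle, and the mtAsn-2 libraries lay far below. The means were 4.38 ± 0.594, 14.1 ± 0.366, 14.4 ± 0.342 and 17.4 ± 2.12 CPM (SD, n = 3 each) with mtAsn-2, mtAsn-1, mtLys and control, and the mtAsn-2 mean was 25.1% of the control mean. The reads numbered 184, 131 and 131 with mtAsn-2, against 525, 473 and 324 with control.

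**Figure D1:**
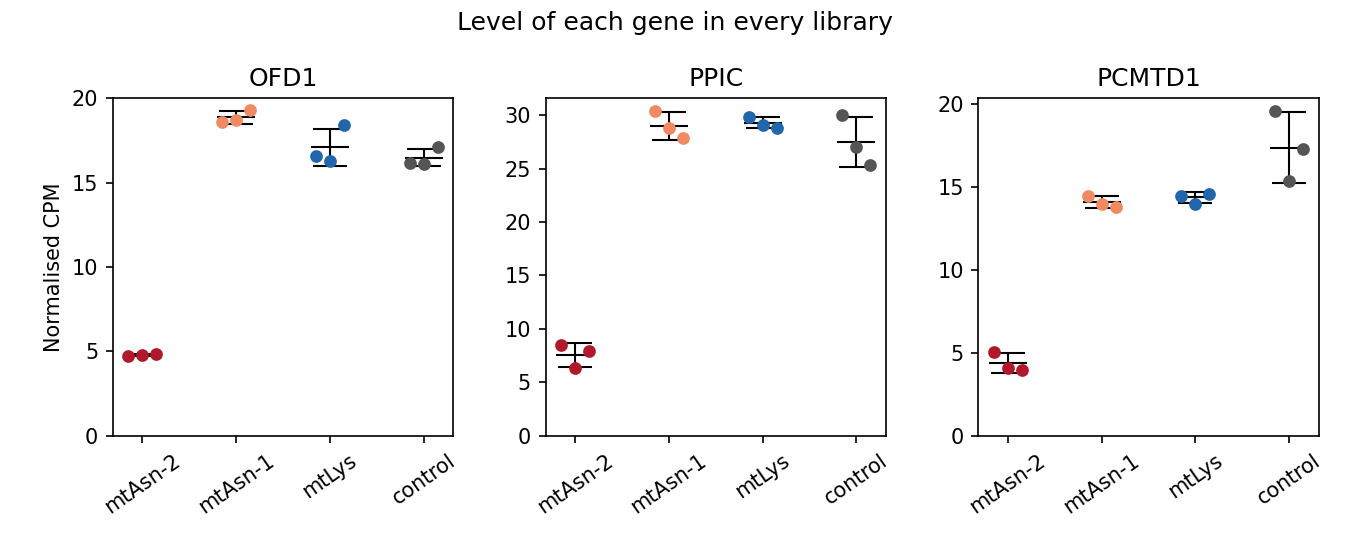
Normalised CPM of OFD1, PPIC and PCMTD1 (vertical axes, each starting at 0) in every library of the mtAsn-2, mtAsn-1, mtLys and control groups. Points are libraries, the longer line is the group mean and the bars are 1 SD over 3 libraries. The mtAsn-2 libraries of OFD1 sit at 4.71 to 4.84 CPM, below the lowest library of any other group at 16.1 CPM.

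Per base of transcript the genes were expressed at different levels. In mtAsn-2 cells PPIC averaged 5.55 ± 0.825 RPKM, PCMTD1 0.908 ± 0.123 RPKM and OFD1 0.512 ± 0.00712 RPKM (SD, n = 3). In control cells PPIC averaged 20.1 ± 1.73 RPKM, PCMTD1 3.61 ± 0.439 RPKM and OFD1 1.77 ± 0.0541 RPKM. The order by length-scaled level was the same in both groups, with PPIC highest and OFD1 lowest.

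The spread between mtAsn-2 libraries differed among the 3 genes. The coefficient of variation over the mtAsn-2 libraries was 1.39% for OFD1, 14.9% for PPIC and 13.6% for PCMTD1. The median was 5.12% over 3538 genes of similar mean level over all 12 libraries. Counting error by itself would give 7.89%, 6.34% and 8.31%, each above that median. With mtAsn-2 the 3 genes lay below their mean level over all libraries, so those genes are not a like-for-like measure there. With mtAsn-1 the coefficients were 2.05%, 4.50% and 2.59%, beside a median of 6.26%, and with mtLys 6.48%, 1.74% and 2.38%, beside a median of 4.64%. In control the coefficients were 3.06%, 8.57% and 12.2%, beside a median of 5.64%. PPIC and PCMTD1 thus varied more than the median of those genes with mtAsn-2 and with control, and less with mtAsn-1 and mtLys. With mtAsn-2 part of the excess comes with their low counts. OFD1 varied less than that median in each group except mtLys. Counting error by itself was 5.02% and 4.98% for OFD1 with mtAsn-1 and control, above its coefficients there. For PCMTD1 with mtAsn-1 and mtLys it was 5.79% and 4.66%, and for PPIC 4.04% and 3.27%. Among these, only the PPIC coefficient with mtAsn-1 exceeded it. A spread of 3 libraries below counting error does not show that a gene varies little.

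The fitted differences had a similar size for all 3 genes. On the log2 scale OFD1 differed by -1.78 between mtAsn-2 and control, by -1.98 between mtAsn-2 and mtAsn-1 and by -1.84 between mtAsn-2 and mtLys. PPIC differed by -1.86, -1.93 and -1.95 in the same comparisons, and PCMTD1 by -1.98, -1.68 and -1.71. As folds, the level with mtAsn-2 was 3.20 to 3.95 times lower across these 9 values. The 3 comparisons share the mtAsn-2 libraries and are not independent. Differences of at least 1 log2 unit downwards were seen for 3.49% of the 16051 genes tested against control, 2.29% against mtAsn-1 and 2.81% against mtLys.

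With mtAsn-2, 27.0% of the genes tested were called lower than control at an edgeR adjusted p under 0.05. Counted from the lowest log2 fold change against control, PCMTD1 ranked 89, PPIC 114 and OFD1 133. Among the 10853 genes with a mean log2 CPM of at least 2 they ranked 10, 15 and 20. Low levels in every mtAsn-2 library, below each of the other 9, were seen for 2082 genes, 13.0% of those tested. A level at least 1 log2 unit below that of each other group was seen for 80 genes (0.498%), against 101 genes at least 1 log2 unit above each other group. Ordered by the smallest of their 3 differences, those 80 genes had PPIC at place 4, OFD1 at place 6 and PCMTD1 at place 9. All of these ranks restate the values that chose the genes.

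**Figure D2:**
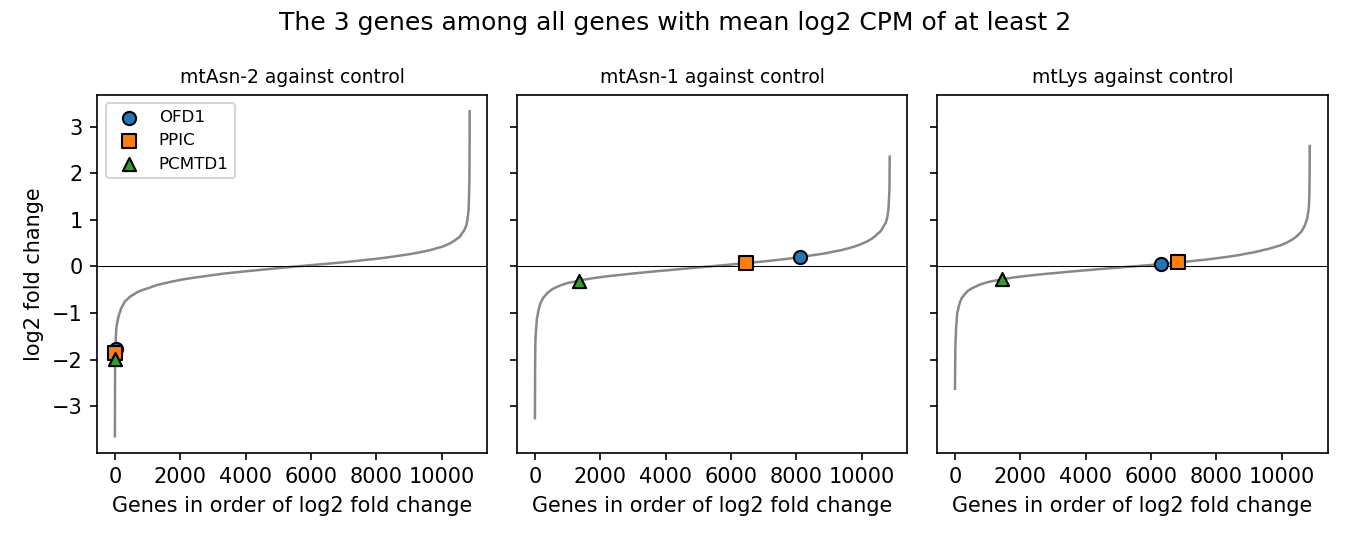
Log2 fold change against control (vertical axis) of the 10853 genes with a mean log2 CPM of at least 2, in order of fold change (horizontal axis, number of genes), for mtAsn-2, mtAsn-1 and mtLys. The circle, square and triangle are OFD1, PPIC and PCMTD1, which lie at the low end with mtAsn-2 (-1.78, -1.86 and -1.98) and between -0.30 and 0.20 with the other LNAs.

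The comparisons that did not involve mtAsn-2 could be tested, although the control libraries also entered the contrast by which the genes were chosen. The other asparagine LNA, mtAsn-1, gave small differences from control in opposite directions. OFD1 was higher with mtAsn-1 than with control, by 0.20 on the log2 scale (SE 0.072; adjusted p = 0.0215, edgeR quasi-likelihood test with Benjamini-Hochberg adjustment over all genes), and higher in 3 of 3 libraries than any control library. PCMTD1 was lower with mtAsn-1, with a log2 fold change of -0.30 (SE 0.089; edgeR adjusted p = 0.00600), and all 3 libraries were below every control library. PPIC differed by 0.07 (SE 0.074; edgeR adjusted p = 0.440), and an interval of 2 SE on either side ran from -0.07 to 0.22. So 2 of the 3 genes were called, while 48.5% of all genes tested were called in this comparison and the libraries of 53.8% did not overlap. Both calls rested on few libraries. The OFD1 call was lost without control replicate 1 (adjusted p = 0.0600), control replicate 2 (0.0699) or mtAsn-1 replicate 3 (0.0811), with adjusted p from 0.0179 to 0.0811 over its 19 alternatives, DESeq2 among them. The PCMTD1 call was lost without control replicate 1 (adjusted p = 0.0786), with adjusted p from 0.00102 to 0.0786 over its alternatives.

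With mtLys, PCMTD1 was lower than with control, by a log2 fold change of -0.28 (SE 0.084; edgeR adjusted p = 0.00767), again in 3 of 3 libraries. That call too was lost without control replicate 1, the control library with the highest PCMTD1 level (adjusted p = 0.110; 0.00130 to 0.110 over its alternatives). OFD1 differed by 0.05 (SE 0.069; edgeR adjusted p = 0.556; interval -0.09 to 0.19) and PPIC by 0.09 (SE 0.071; edgeR adjusted p = 0.323; interval -0.05 to 0.23), with overlapping libraries in both cases. Thus 1 of the 3 genes was called, where 48.5% of all genes were called and 56.3% did not overlap between the groups.

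Between mtAsn-1 and mtLys none of the 3 genes was called by edgeR or by DESeq2, and 5.26% of all genes were. At an unadjusted p under 0.05, edgeR called 1 of them, OFD1, and DESeq2 called 0. The log2 differences were 0.15 for OFD1 (SE 0.069; edgeR adjusted p = 0.251; interval 0.01 to 0.29), -0.01 for PPIC (SE 0.072; adjusted p = 0.946; interval -0.16 to 0.13) and -0.03 for PCMTD1 (SE 0.088; adjusted p = 0.918; interval -0.20 to 0.15). The OFD1 libraries of the 2 groups did not overlap, as for 24.1% of all genes. From high to low, OFD1 ran mtAsn-1, mtLys, control and mtAsn-2, PPIC ran mtLys, mtAsn-1, control and mtAsn-2, and PCMTD1 ran control, mtLys, mtAsn-1 and mtAsn-2. Among the 3 upper groups, neighbours in these orders differed beyond the test's threshold only for PCMTD1, between mtLys and control.

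Pseudogenes named as copies of OFD1 or PCMTD1 took few reads. They were found by name, so their likeness in sequence was not measured, and how reads matching several places were counted is not known. The pseudogene OFD1P17 had 0 to 6 reads per library, 0.301% of the reads of OFD1 and OFD1P17 together over all libraries. Of the 8 annotated copies of PCMTD1, 1 had reads, 0 to 3 per library. The sources used here do not say whether the authors' counting used strand, so reads of overlapping genes on opposite strands cannot be told apart. GPM6B overlaps the 3′ end of OFD1 on the other strand and had 0 to 3 reads, and LOC107986447 overlaps the 5′ end of PPIC and had 2 to 11. SNX24 overlaps the 3′ part of PPIC on the other strand and had far more, 428 to 1001 reads per library. How far this overlap changed the counts of PPIC was not tested.

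The genes beside the 3 loci did not share the size of their change, with 1 exception of very low count. Few genes could be expected to, since the 3 were chosen for low levels. Of all genes tested, 3.49% had a log2 fold change of at most -1 with mtAsn-2 against control. Within 250 kb, 10 other genes were tested: 4 around OFD1, 5 around PPIC and 1 beside PCMTD1. With mtAsn-2 4 of them were called lower than control and 0 higher, while 27.0% and 24.1% of all genes were called lower and higher. With mtAsn-1 2 were lower and 1 higher (24.2% and 24.3% of all genes), and with mtLys 1 and 1 (23.9% and 24.6%). TRAPPC2, a subunit of a vesicle tethering complex, starts 78 bases from OFD1 on the opposite strand, inside the OFD1 promoter window printed above. It averaged 8.57 ± 0.361 CPM with mtAsn-2 and 9.90 ± 0.664 CPM with control (SD, n = 3 each), a log2 fold change of -0.22 (SE 0.084; edgeR adjusted p = 0.0308). That call held in 11 of 18 alternatives (adjusted p from 0.0181 to 0.133), and TRAPPC2 was also lower with mtAsn-1 than with control, by -0.26 (SE 0.090; edgeR adjusted p = 0.0190; called in 15 of 18 alternatives, 0.0115 to 0.0855). GEMIN8, of the SMN complex, lies 228516 bases past the other end of OFD1 and differed by 0.24 (SE 0.126; edgeR adjusted p = 0.116; 0.0260 to 0.351 over its alternatives).

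SNX24, a sorting nexin, overlaps PPIC on the opposite strand and had 822, 702 and 709 reads with mtAsn-2 and 678, 735 and 428 with control. Its level was 22.0 ± 0.533 CPM with mtAsn-2 and 24.0 ± 1.23 CPM with control (SD, n = 3 each), a difference of -0.13 (SE 0.061; edgeR adjusted p = 0.0839; 0.0577 to 0.333 over its alternatives). SNX24 was lower with mtAsn-2 than with mtAsn-1, by a log2 fold change of -0.40 (SE 0.061; edgeR adjusted p = 3.12e-06), and than with mtLys, by -0.37 (SE 0.058; edgeR adjusted p = 5.89e-06). It was higher than control with mtAsn-1, by 0.28 (SE 0.062; edgeR adjusted p = 0.000515), and with mtLys, by 0.24 (SE 0.060; edgeR adjusted p = 0.00133). RN7SL689P, a 7SL pseudogene 467 bases past the 3′ end of PPIC on the same strand, had 4, 5 and 5 reads with mtAsn-2, 11, 10 and 7 with mtAsn-1, 23, 27 and 17 with mtLys, and 24, 17 and 7 with control. Its log2 fold change with mtAsn-2 against control was -2.15 (SE 0.415; edgeR adjusted p = 7.97e-05), and it was called in 17 of 17 alternatives (adjusted p from 3.63e-06 to 0.00279). The stricter filter left it out, at means of 0.140 CPM with mtAsn-2 and 0.608 CPM with control. Its mtAsn-2 counts were below 10, so it passed the main filter only through groups where it was higher. Whether reads of other 7SL copies entered this count was not tested. LOC105379152, on the other side of PPIC, differed by 0.15 (SE 0.205; edgeR adjusted p = 0.578).

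LOC102724330 starts 139 bases from PCMTD1 on the opposite strand and had 23, 28 and 35 reads with mtAsn-2, against 36, 32 and 25 with control. Its groups overlapped and its log2 fold change was -0.52 (SE 0.221; edgeR adjusted p = 0.0502; 0.0196 to 0.264 over its alternatives). No tested gene lay on the other side of PCMTD1. The other 2 neighbours called lower with mtAsn-2 were RAB9A near OFD1 (-0.20, SE 0.084, edgeR adjusted p = 0.0491) and SNX2 near PPIC (-0.25, SE 0.045, edgeR adjusted p = 4.07e-05), named after their values were seen. The RAB9A call held in 2 of 18 alternatives (0.0295 to 0.249). SNX2 was also lower than control with mtAsn-1 (-0.3, edgeR adjusted p = 5.09e-06) and with mtLys (-0.33, edgeR adjusted p = 6.61e-07). It was not called between mtAsn-2 and either of them (edgeR adjusted p = 0.388 and 0.120).

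**Figure D3:**
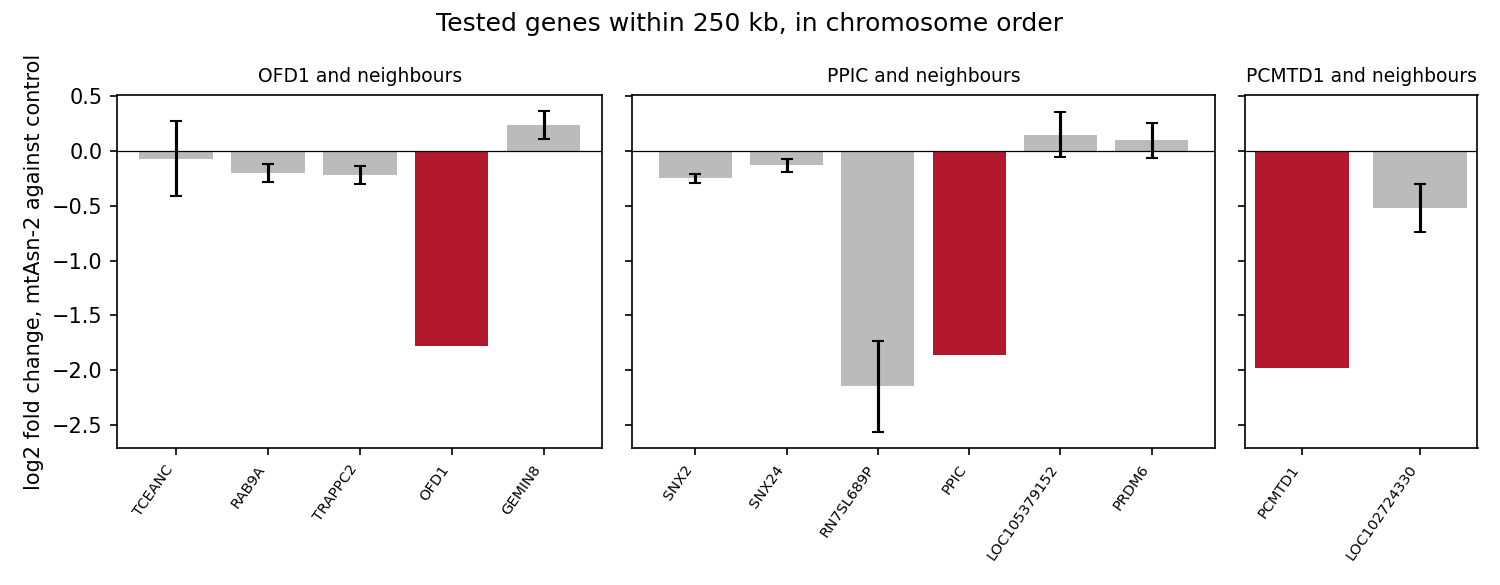
Log2 fold change of mtAsn-2 against control (vertical axis) for OFD1, PPIC and PCMTD1 (red, no error bar since they were chosen on this contrast) and the tested genes within 250 kb (grey, bars 1 SE), in chromosome order. The neighbours lie between -0.52 and 0.24 except RN7SL689P at -2.15, which had 4 or 5 reads per mtAsn-2 library.

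No tested gene of the 3 lists around OFD1 had a log2 fold change as low as that of OFD1 with mtAsn-2. The choice of the 3 genes by low levels made this likely beforehand, here and for the lists below. Of all genes tested, 3.49% had a log2 fold change of at most -1 with mtAsn-2 against control. Of 11 centriolar satellite genes tested, 7 were higher and 3 lower with mtAsn-2 than with control, with a median log2 fold change of 0.29 beside -0.01 over all genes. CEP290, a satellite and transition zone protein, averaged 34.7 ± 1.63 CPM with mtAsn-2 and 20.6 ± 0.507 CPM with control (SD, n = 3 each), a rise of 0.75 (SE 0.063; edgeR adjusted p = 6.51e-11). CCDC14 rose by 0.44 (SE 0.049; edgeR adjusted p = 1.45e-08), to 57.7 CPM with mtAsn-2 against 42.7 CPM with control. Both genes were also called higher with the other LNAs: CEP290 by 0.25 with mtAsn-1 and 0.23 with mtLys, CCDC14 by 0.59 and 0.50. KIAA0753, which binds OFD1 at satellites, had a log2 fold change of -0.32 (SE 0.052; edgeR adjusted p = 8.43e-06), and PCM1, the satellite scaffold, of -0.16 (SE 0.046; edgeR adjusted p = 0.00436). With mtAsn-1 and mtLys KIAA0753 was also called lower (-0.25 and -0.22), but PCM1 was called higher (0.19 with each). With mtAsn-1 the satellite list had 7 higher, 1 lower and 3 not called (median 0.25), and with mtLys 5 higher, 1 lower and 5 not called (median 0.16), where the median of all genes was 0. These comparisons share the control libraries. Of all genes tested, 24.1% rose and 27.0% fell with mtAsn-2, 24.3% and 24.2% with mtAsn-1, and 24.6% and 23.9% with mtLys.

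Of 12 genes of the distal centriole and its appendages, where OFD1 acts, 5 rose and 3 fell with mtAsn-2, with a median of -0.03. FBF1 and CEP164, both distal appendage proteins, rose by 0.93 (SE 0.078; edgeR adjusted p = 6.64e-11) and 0.80 (SE 0.042; edgeR adjusted p = 4.99e-15). C2CD3, which acts with OFD1 at the distal end of the centriole, averaged 34.1 ± 0.190 CPM with mtAsn-2 and 51.6 ± 1.68 CPM with control (SD, n = 3 each). Its log2 fold change of -0.60 (SE 0.050; edgeR adjusted p = 6.03e-11) was the lowest in any of the 7 lists. TTBK2, the kinase recruited to the appendages, had a log2 fold change of -0.26 (SE 0.060; edgeR adjusted p = 0.000568). With mtAsn-1 the list had 6 higher and 2 lower, and with mtLys 4 and 4, with medians of 0.15 and 0.04. FBF1 (0.53 and 0.44) and CEP164 (0.46 and 0.41) were called higher there too, while C2CD3 and TTBK2 were called with neither.

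Intraflagellar transport, the motor-driven traffic inside cilia, had 17 of 19 genes tested, of which 8 rose and 3 fell with mtAsn-2 (median 0.12). IFT88 rose by 0.83 (SE 0.084; edgeR adjusted p = 2.43e-09) and IFT172 by 0.76 (SE 0.069; edgeR adjusted p = 3.57e-10). IFT46 and IFT20 had log2 fold changes of -0.36 (SE 0.070; edgeR adjusted p = 7.64e-05) and -0.34 (SE 0.071; edgeR adjusted p = 0.000207). With mtAsn-1 the list had 5 higher and 2 lower, and with mtLys 5 and 2. The 2 lower genes were IFT20 (-0.50 with each) and IFT46 (-0.30 with mtAsn-1 and -0.18 with mtLys). The higher genes differed only in WDR19, called with mtAsn-1, and IFT27, called with mtLys. IFT172 was among the shared ones, at 0.62 and 0.54, and IFT88 was called with neither.

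The other 16 cyclophilins split, with 4 higher and 5 lower with mtAsn-2 and a median of -0.07. PPIB, cyclophilin B, the endoplasmic reticulum relative of PPIC, averaged 92.9 ± 2.85 CPM with mtAsn-2 and 79.9 ± 2.99 CPM with control (SD, n = 3 each), a rise of 0.22 (SE 0.044; edgeR adjusted p = 0.000131). PPIL2 rose by 0.45 (SE 0.052; edgeR adjusted p = 2.51e-08). PPIA, the abundant cytosolic cyclophilin A, had a log2 fold change of -0.28 (SE 0.038; edgeR adjusted p = 3.69e-07), and PPIG, a nuclear cyclophilin, of -0.29 (SE 0.049; edgeR adjusted p = 1.73e-05). No cyclophilin on the list lay below -0.29, against -1.86 for PPIC, which was chosen for its low level. With mtAsn-1 the list had 2 higher and 8 lower, and with mtLys 2 and 6. PPIB (0.19 with each), PPIL2 (0.29 and 0.38) and PPIG (-0.36 and -0.31) were called there in the same direction, and PPIA was not called.

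Of the prolyl isomerases and collagen folding factors of the endoplasmic reticulum, 8 of 9 were tested, and 7 were higher and 1 lower with mtAsn-2 (median 0.44). CRTAP and P3H1, partners of cyclophilin B in modifying collagen, rose by 0.54 (SE 0.037; edgeR adjusted p = 1.04e-12) and 0.49 (SE 0.040; edgeR adjusted p = 3.41e-11), and FKBP9 had a log2 fold change of -0.28 (SE 0.046; edgeR adjusted p = 1.01e-05). The same list had 6 higher and 1 lower with mtAsn-1 and 6 higher and 0 lower with mtLys. CRTAP (0.23 with each) and P3H1 (0.35 and 0.41) were called higher there too, and FKBP9 was not called. The value of -1.86 for PPIC, a gene chosen for its low level, was below that of every tested gene of both lists.

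Around PCMTD1, the 8 genes of isoaspartate methyltransferases and the CUL5 ligase core gave 1 higher and 4 lower with mtAsn-2 (median -0.10 beside -0.01 over all genes). The list thus had 5 calls, against 3 without the filter on low counts and 3 without control replicate 2. CUL5, the ligase scaffold, had a log2 fold change of -0.42 (SE 0.051; edgeR adjusted p = 6.10e-08), ELOB, the adaptor elongin B, of -0.30 (SE 0.046; edgeR adjusted p = 2.30e-06), and ARIH2, a partner ligase of CUL5, rose by 0.24 (SE 0.037; edgeR adjusted p = 3.59e-06). The 2 closest relatives of PCMTD1 were named for their kinship after their values had been seen. PCMT1 had a log2 fold change of -0.15 (SE 0.045; edgeR adjusted p = 0.00603), with 69.9 ± 2.79 CPM with mtAsn-2 and 77.5 ± 3.09 CPM with control (SD, n = 3 each), and PCMTD2 of 0.12 (SE 0.146; edgeR adjusted p = 0.513), with 5.19 ± 1.28 CPM with mtAsn-2 and 4.82 ± 0.665 CPM with control. Of 21 tested receptors with a SOCS box, 5 rose and 9 fell with mtAsn-2 (median -0.07). SOCS2 and SPSB2 rose by 0.70 (SE 0.122; edgeR adjusted p = 1.79e-05) and 0.33 (SE 0.071; edgeR adjusted p = 0.000341), and SOCS3 and SPSB1 had log2 fold changes of -0.54 (SE 0.043; edgeR adjusted p = 2.95e-11) and -0.53 (SE 0.054; edgeR adjusted p = 3.10e-09). With mtAsn-1 the CUL5 list had 0 higher and 5 lower and the SOCS-box list 3 and 3, and with mtLys the CUL5 list had 0 and 3 and the SOCS-box list 2 and 6. Several of the named genes were called with the other LNAs too. ELOB (-0.16 with mtAsn-1 and -0.13 with mtLys) and SPSB2 (0.50 and 0.23) kept their direction. ARIH2 was called lower with mtAsn-1 (-0.11), and SPSB1 was called with neither. The log2 fold change of CUL5 was -0.29 with mtAsn-1 (edgeR adjusted p = 4.04e-05) and -0.35 with mtLys (edgeR adjusted p = 1.58e-06). SOCS3 had -0.48 with mtAsn-1 (edgeR adjusted p = 5.13e-10) and -0.38 with mtLys (edgeR adjusted p = 2.66e-08), and SOCS2 had 0.48 (edgeR adjusted p = 0.00392) and 0.53 (edgeR adjusted p = 0.000768).

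**Figure D4:**
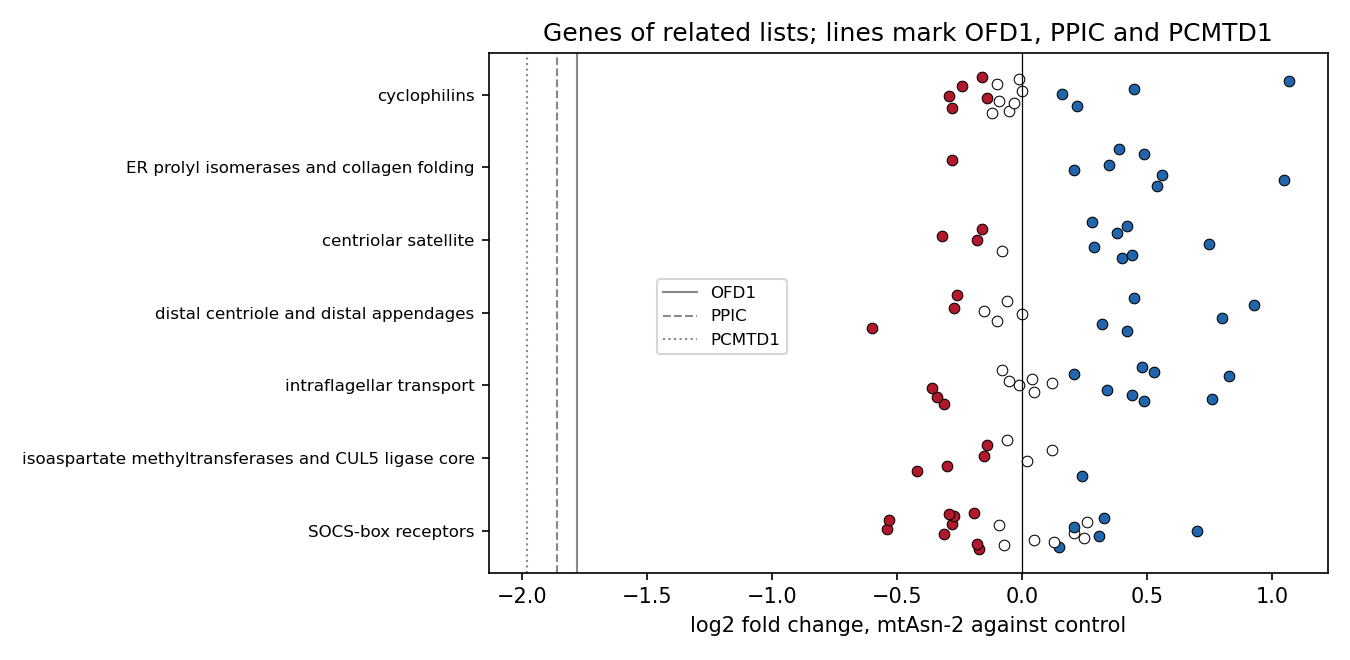
Log2 fold change of mtAsn-2 against control (horizontal axis) for each tested gene of 7 lists of related genes. Blue points were called higher, red points lower and open points neither (edgeR adjusted p under 0.05), and vertical lines mark OFD1, PPIC and PCMTD1. The lowest point of any list is C2CD3 at -0.60, against -1.78, -1.86 and -1.98 for the 3 genes, which were chosen for low levels with mtAsn-2.

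The 3 genes followed each other across libraries, which the choice by low mtAsn-2 levels itself brings about. Over the 12 libraries, Pearson's r of log2 CPM was 0.986 between OFD1 and PPIC, 0.975 between PPIC and PCMTD1 and 0.964 between OFD1 and PCMTD1. These values describe the gap between 3 mtAsn-2 libraries and 9 others. Among 10395 candidates, the genes that RefSeq lists as protein-coding (or, without a RefSeq match, that have no LOC, LINC, MIR or antisense name) with a mean log2 CPM of at least 2, the patterns nearest to OFD1 were those of HPSE, LARP4B, RER1, NCAPH and RTF2, with r from 0.992 to 0.995. HPSE, the heparan sulfate cleaving enzyme heparanase, had 6.80, 7.53 and 6.91 CPM with mtAsn-2, averages of 26.4 CPM with mtAsn-1 and 24.6 CPM with mtLys, and 26.1, 24.9 and 25.7 CPM with control. The likeness is one of shape, since RTF2 lay at 114 CPM with mtAsn-2 and 164 CPM with control, a log2 difference of -0.52.

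The patterns nearest to PPIC were those of RRP1, ZNF687, RCAN3, RER1 and TEX2, with r from 0.990 to 0.998. RRP1, a ribosomal RNA processing factor, averaged 24.5 CPM with mtAsn-2, 62.9 CPM with mtAsn-1, 61.7 CPM with mtLys and 59.8 CPM with control. RER1, a retrieval receptor of the early Golgi, stood on the lists of both OFD1 and PPIC, with 69.7, 67.2 and 66.1 CPM with mtAsn-2 and 137, 136 and 132 CPM with control. Among those nearest to PCMTD1 were PPP1CB, EDIL3, CSNK1A1 and YAP1, with r from 0.990 to 0.995. Each of these 4 had its highest group mean in control, as PCMTD1 did: EDIL3, an extracellular matrix protein that binds integrins, averaged 68.5 CPM with mtAsn-2, 136 CPM with mtAsn-1, 149 CPM with mtLys and 161 CPM with control. YAP1, the Hippo pathway coactivator, averaged 162 CPM with mtAsn-2 and 234 CPM with control.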

How the data were processed

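RNA of MDA-MB-231 cells was made into libraries with a TruSeq RNA kit, per the labels' protocols. The deposited values are raw read counts per gene, made by the authors, 1 column for each of 12 libraries. STAR 2.6.0a, featureCounts, FastQC, DESeq2 and the build hg38 are named in the submitters' processing notes. The sources used here do not give strandedness or the handling of multi-mapping reads. Of 52897 lines, 38 were broken, with values outside their columns, and were left out (12 genes, at most 0.141% of a library), leaving 52859 genes.

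All 12 libraries entered 1 edgeR 4.0.16 fit (R 4.3.3), with TMM factors, genes kept by filterByExpr at a total of at least 15 and a count of at least 10, robust quasi-likelihood tests, and Benjamini-Hochberg adjustment over 16051 genes and a threshold of 0.05. CPM are scaled to the TMM-adjusted total, log2 CPM used a prior count of 2, and RPKM used the table's gene length. Each SE was worked back from the size of the log2 fold change and the root of its F statistic. Replicates of a group differed by more than sampling noise (chi-square per gene at least 2.43), so no library was a copy.

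The genes, lists, comparisons and naming rule were chosen with earlier results of these data known. The text names at most 2 called rises and 2 called falls of each list, by adjusted p, per gene the 5 nearest patterns by Pearson's r (1 of them is not reported here), and the overlapping and nearest tested neighbours. Motifs were chosen after the promoters had been seen. Sequences are from RefSeq (2 of the 3 promoters matched) and GENCODE 29. Alternatives were RLE factors, DESeq2 1.42.0, no or stricter filters, a replicate block, the compared groups alone, the reads of processed copies added to OFD1, PPIC and PCMTD1, and each library left out.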

Additional observations from a re-analysis of the deposited data

How the results depend on the processing

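All 171 alternative values of OFD1, PPIC and PCMTD1 in the mtAsn-2 contrasts kept their direction, with log2 fold changes from -2.10 to -1.61. The genes were chosen for low levels in these same libraries, so that direction was all but fixed beforehand. Of the 171 alternatives of their tested contrasts, 166 gave the same outcome as the main fit, called or not called. The other 5 lost a call, each with 1 library left out. Only OFD1 and PCMTD1 with mtAsn-1 and PCMTD1 with mtLys, each against control, had a call to lose, with 19 alternatives each. Over the libraries left out, the log2 fold change of mtAsn-1 against control ran from 0.18 to 0.22 for OFD1 and from -0.39 to -0.20 for PCMTD1, and that of mtLys against control from -0.37 to -0.18 for PCMTD1. The called genes of the isoaspartate methyltransferase and CUL5 list with mtAsn-2 numbered 5, against 3 without the filter and 3 to 5 with 1 library left out. The other 6 lists kept their mtAsn-2 counts within 1.5 times, as did 952 of 1008 counts of the lists split by direction or in other comparisons. All 468 alternatives of the named list genes kept their call, and of 525 for the neighbours 26 lost and 4 gained one. Genes called higher with mtAsn-1 than with mtLys numbered 341, against 120 to 395 with 1 library left out, and genes called lower 504, against 275 to 527.

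Same-numbered libraries did not pair: 4 of 18 pairs correlated above 0.1, with r from -0.328 to 0.149. Pairs with different numbers had r from -0.33 to 0.407. Whether libraries pair in another order, which the replicate number would not remove, was not tested. With the replicate number as a block, OFD1 with mtAsn-1 against control differed by 0.19 (edgeR adjusted p = 0.0319), and none of the calls of the 3 genes changed. The count of genes called higher with mtAsn-1 than with mtLys was then 256, against 341. At 131 to 308 reads per mtAsn-2 library, counting error alone gives these 3 genes a coefficient of variation of 6.34% to 8.31%.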
